A study of Mus musculus with 9 samples.

Results

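The 10 genes described here carry the transcriptional readout of endoplasmic reticulum (ER) stress and of the integrated stress response in mouse liver. They were chosen by name, not by a measured value, from the 27179 genes of the count table. Earlier results of these data were known when they were chosen. The ER chaperone and unfolded protein response arm held Hspa5, Hsp90b1, Pdia4, Herpud1 and Xbp1, and the integrated stress response arm held Atf4, Ddit3, Trib3, Asns and Chac1. All 10 passed the filter on low counts and were among the 16860 genes tested.

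Transcripts were counted in sections of frozen, embedded livers of female mice by bulk RNA sequencing. The control group was Apoe-/- (5 libraries), which lacks apolipoprotein E and develops hypercholesterolemia, and the other group was Mif-2-/- Apoe-/- (4 libraries), which additionally lacks Mif-2 through a germline deletion in all tissues. Both groups were therefore Apoe-deficient, and both had received a cholesterol-rich Western-type high-fat diet (HFD) for 12 weeks from young adulthood. Neither a group on normal chow nor one with intact Apoe was compared here. The values therefore describe the difference between these genotypes within atherogenic, diet-fed animals. Each library pooled lysates of several sections and was made with Smart-seq2, which amplifies full-length cDNA and keeps no strand. The labels do not say that the libraries came from separate animals, and the p-values measure the spread between these libraries, which may in part be technical.

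Misfolded protein in the ER lumen is sensed by IRE1, PERK and ATF6, and their joint output, the unfolded protein response, raises chaperones, disulfide isomerases and the machinery that extracts proteins for degradation. PERK also phosphorylates eIF2alpha, as do the kinases that sense amino acid shortage, heme deficiency and double-stranded RNA, and the shared program downstream of this step, driven by ATF4 and CHOP, is the integrated stress response. In hepatocytes, which secrete most plasma proteins and assemble lipoproteins in the ER, both programs are known to be engaged by lipid overload. ATF4 and the active form of XBP1 are controlled largely by translation and by unconventional mRNA splicing, respectively, so counts per gene do not report their activity.

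The genes carry known control sequences near their transcription starts, and those present in the members are shown because they are the binding elements of the factors that head each arm. Promoter windows of 300 bases (RefSeq, GRCm38.p6) were matched for 10 of 10 members and searched on both strands. The ER stress response element (ERSE, CCAAT and CCACG separated by 9 bases of any kind) is bound by NF-Y together with ATF6 or XBP1, and it was found in Hspa5 and, as 2 copies, in Hsp90b1. The related ERSE-II (ATTGG and CCACG separated by 1 base) was found in Herpud1. In the lines below the letters fixed by each motif are in capitals and the flanking bases in lower case, each read along the strand of its gene.
Hspa5 ERSE: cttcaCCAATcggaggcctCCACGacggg
Hsp90b1 ERSE, distal copy: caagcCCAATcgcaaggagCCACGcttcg
Hsp90b1 ERSE, proximal copy in reverse: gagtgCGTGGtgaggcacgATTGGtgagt
Herpud1 ERSE-II: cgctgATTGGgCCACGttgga
The Hspa5 fragment is at chr2:34772020-34772048 (plus strand), with the motif at -65 to -47 from the start. The Hsp90b1 fragments are at chr10:86705633-86705661 and chr10:86705528-86705556 (minus strand), with motifs at -212 to -194 and -107 to -89. The Herpud1 fragment is at chr8:94386372-94386392 (plus strand), with the motif at -52 to -42. Of 27025 genes with a window, 0.137% held an ERSE and 0.0444% an ERSE-II.

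The amino acid response element (CARE, letters TGATGNAA), to which ATF4 binds with C/EBP partners, was found in Trib3, Asns, Chac1 and, as a further element, Herpud1. It is short, and 4.51% of all genes with a window held it.
Trib3 CARE in reverse: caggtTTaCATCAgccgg
Asns CARE: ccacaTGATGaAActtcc
Chac1 CARE in reverse: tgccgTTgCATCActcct
Herpud1 CARE in reverse: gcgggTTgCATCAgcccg
The Trib3 fragment is at chr2:152344034-152344051 (minus strand) with the motif at 15 to 22 past the start, and the Asns fragment is at chr6:7693220-7693237 (minus strand) with the motif at -23 to -16. The Chac1 fragment is at chr2:119351044-119351061 (plus strand) at -193 to -186, and the Herpud1 fragment at chr8:94386312-94386329 (plus strand) at -112 to -105. Positions count from the RefSeq start, and the longest GENCODE models begin upstream of the Hspa5 and Asns fragments and just downstream of that of Trib3. None of the printed matches overlapped another. The UPRE core (letters TGACGTGG, in 0.714% of genes) and the CRE (letters TGACGTCA, in 2.03%) were in the window of no member, and Pdia4, Xbp1, Atf4 and Ddit3 held none of the 5 motifs, which says only that these letters are not in these windows.

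Total counts per library ranged from 2318148 to 10764182, and the 10 most highly expressed genes took 12.5% to 26.3% of them. Ddt, which encodes MIF-2, had 1205 to 4820 counts in the Apoe-/- libraries and 6 to 27 in the Mif-2-/- Apoe-/- libraries (log2 fold change 7.27, SE 0.54, adjusted p = 2.2e-05, edgeR), so each library matched its genotype label. Levels below are read counts scaled to library size (CPM) after TMM normalization, given as mean ± SD with n = 5 and n = 4. A positive log2 fold change means a higher level in Apoe-/- livers, in which Mif-2 is intact, and the median over all genes tested was -0.17. In bulk tissue, fewer cells that express a gene and less of its RNA per cell cannot be told apart.

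No member was called by edgeR's quasi-likelihood test at an adjusted p under 0.05, against 0.13% of all genes tested (0.0593% on the side of Apoe-/- and 0.0712% on that of Mif-2-/- Apoe-/- livers), and the lowest adjusted p among the 10 was 0.128. At an unadjusted p under 0.05 there were 4 members, 2 in each direction, beside 15.5% of all genes. DESeq2 called 3 members, Hsp90b1 and Pdia4 higher in Apoe-/- livers and Trib3 higher in Mif-2-/- Apoe-/- livers, beside 4.93% of the genes to which it gave an adjusted p (2.35% and 2.58% in these directions). In 4 members the libraries of the genotypes did not overlap, 2 in each direction, beside 4.26% of all genes. Of the 10 log2 fold changes 5 were positive and 5 negative, with a median of 0.15.

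**Figure D1:**
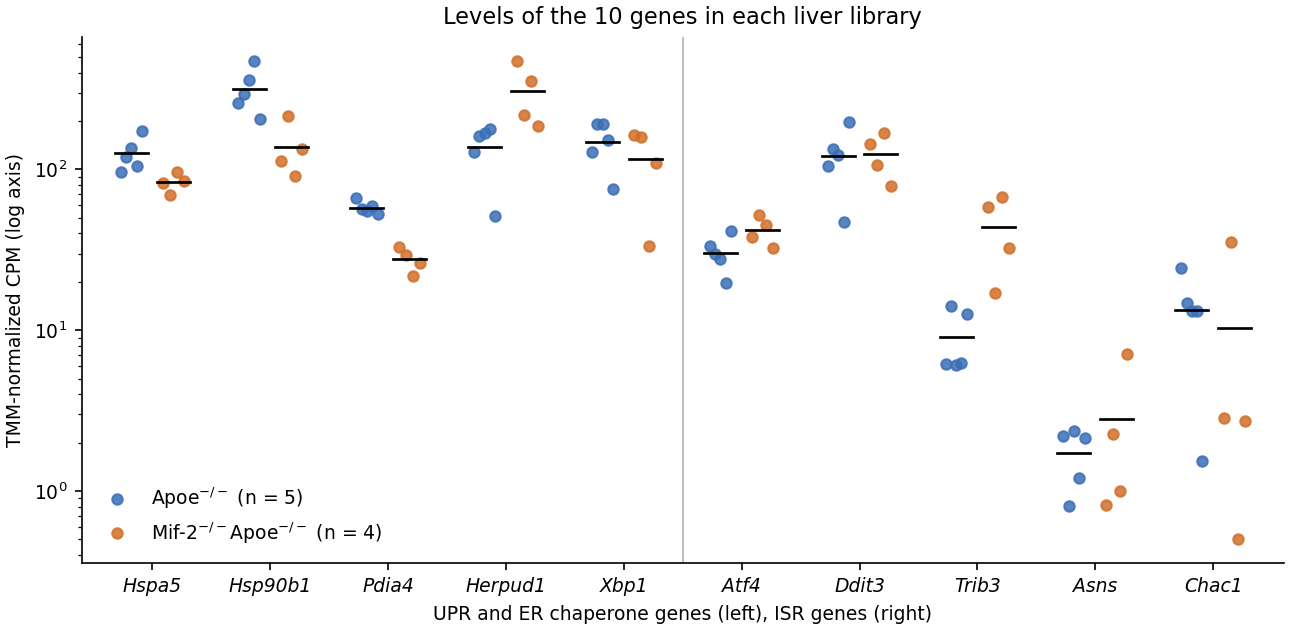
TMM-normalized CPM (log axis) of the 10 genes in each library of Apoe-/- (n = 5, blue) and Mif-2-/- Apoe-/- (n = 4, orange) livers, with the group mean as a bar. Pdia4 and Trib3 stood apart between the genotypes in opposite directions, whereas the Ddit3 means of 121 and 125 CPM lay within the spread of either group.

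Within the ER chaperone arm, the lumenal folding proteins had higher means in Apoe-/- livers, and Herpud1 had a higher mean in Mif-2-/- Apoe-/- livers. Pdia4 (chr6:47796141-47813430, minus strand, gene coordinates on GRCm38), a protein disulfide isomerase of the ER lumen, stood at 66.3, 56.6, 54.9, 59.7 and 52.7 CPM in the Apoe-/- libraries and at 33.1, 29.5, 21.7 and 26.1 CPM in the Mif-2-/- Apoe-/- libraries. Every Apoe-/- library was above every Mif-2-/- Apoe-/- library, and the spread was the smallest of the 10 genes in the Apoe-/- group (coefficient of variation 9.08%). The means were 58.0 ± 5.27 and 27.6 ± 4.90 CPM, a 2.10-fold difference (log2 fold change 1.07, SE 0.35). The adjusted p was 0.177 in edgeR and 8.7e-04 in DESeq2. The two-sided exact permutation test on log2(CPM + 0.5) gave p = 0.0159, which is the smallest that 5 against 4 libraries allow.

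Hsp90b1 (chr10:86690209-86705509, minus strand) encodes GRP94, the HSP90 of the ER, which folds secreted and membrane proteins. Its level was 258, 295, 361, 473 and 207 CPM in Apoe-/- livers and 114, 216, 90.7 and 133 CPM in Mif-2-/- Apoe-/- livers. The groups overlapped through a single pair, Apoe-/- replicate 5 at 207 CPM and Mif-2-/- Apoe-/- replicate 2 at 216 CPM. The difference was 2.31-fold (log2 fold change 1.21, SE 0.35), with adjusted p-values of 0.156 (edgeR) and 0.0266 (DESeq2) and an exact permutation p of 0.0317. Without Mif-2-/- Apoe-/- replicate 2 the edgeR log2 fold change was 1.60 with an adjusted p of 0.0464. That library was the highest of the lower group, so leaving it out widens the difference by construction. A total of 415 of its 4032 exonic bases are shared with 1810014B01Rik, a pseudogene on the other strand, and reads from the shared bases cannot be assigned to either.

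Hspa5 (chr2:34771970-34777547, plus strand) encodes BiP, the most general chaperone of the ER lumen and the protein that holds the stress sensors inactive. It was measured at 96.7, 120, 136, 105 and 174 CPM in Apoe-/- livers and at 82.8, 69.9, 96.0 and 84.8 CPM in Mif-2-/- Apoe-/- livers. The groups did not overlap, but the lowest Apoe-/- and the highest Mif-2-/- Apoe-/- libraries were 96.7 and 96.0 CPM. The log2 fold change was 0.60 (SE 0.30), with adjusted p-values of 0.355 (edgeR) and 0.222 (DESeq2). The exact permutation p was 0.0159 on TMM-normalized values and 0.413 on CPM without TMM.

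Herpud1 (chr8:94386438-94395377, plus strand), an ER membrane protein of the degradation complex around the ubiquitin ligase HRD1, had the opposite sign. It had 128, 162, 168, 179 and 51.7 CPM in Apoe-/- livers and 475, 217, 353 and 186 CPM in Mif-2-/- Apoe-/- livers. The highest Apoe-/- library (179 CPM) lay just under the lowest Mif-2-/- Apoe-/- library (186 CPM), and no libraries overlapped. The means of 138 ± 51.8 and 308 ± 133 CPM differed 2.23-fold (log2 fold change -1.16, SE 0.39), with adjusted p-values of 0.187 (edgeR) and 0.0715 (DESeq2) and an exact permutation p of 0.0159.

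For Xbp1 (chr11:5520659-5525893, plus strand), the transcription factor that IRE1 activates by splicing its mRNA, no difference was detectable at this spread. Its levels were 128, 192, 191, 154 and 75.5 CPM in Apoe-/- livers and 165, 159, 33.3 and 110 CPM in Mif-2-/- Apoe-/- livers. The ranges overlapped widely, and Mif-2-/- Apoe-/- replicate 3 was the lowest of the 9. The log2 fold change was 0.34 with an SE of 0.43 (edgeR adjusted p = 0.758). The counts per gene do not separate the spliced from the unspliced form.

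**Figure D2:**
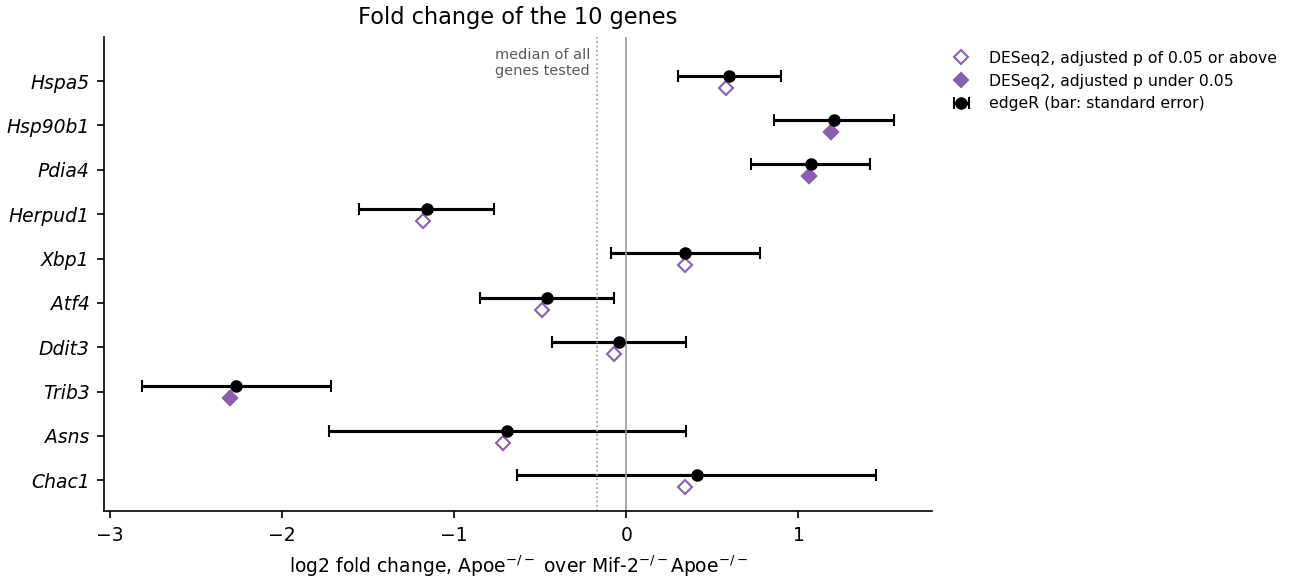
Log2 fold change, Apoe-/- over Mif-2-/- Apoe-/-, of the 10 genes from edgeR (black circles, bars are standard errors) and DESeq2 (purple diamonds, filled at an adjusted p under 0.05), with the median of all genes tested as a dotted line at -0.17. Hsp90b1 at 1.21 and Trib3 at -2.27 mark the extremes.

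In the integrated stress response arm, Trib3 was the only gene whose libraries separated by genotype, and its upstream factors did not. Trib3 (chr2:152337422-152344032, minus strand) encodes a pseudokinase that ATF4 and CHOP induce and that feeds back on both, and it also binds the kinase AKT. It stood at 6.17, 14.2, 6.10, 6.25 and 12.6 CPM in Apoe-/- livers and at 58.4, 17.0, 67.0 and 32.7 CPM in Mif-2-/- Apoe-/- livers. All Mif-2-/- Apoe-/- libraries were above all Apoe-/- libraries, with replicate 2 of the former nearest to the Apoe-/- range. The means were 9.06 ± 4.0 and 43.8 ± 23.0 CPM, 4.81-fold higher in Mif-2-/- Apoe-/- livers (log2 fold change -2.27, SE 0.55). This was the lowest p of the 10 members (unadjusted 9.7e-04, adjusted 0.128, edgeR), DESeq2 gave an adjusted p of 0.0018, and the exact permutation p was 0.0159.

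Atf4 (chr15:80255184-80257541, plus strand), the transcription factor translated when eIF2alpha is phosphorylated, had 33.2, 29.9, 27.7, 19.8 and 41.6 CPM in Apoe-/- livers and 38.0, 52.2, 45.1 and 32.7 CPM in Mif-2-/- Apoe-/- livers. Means were 30.4 ± 7.98 and 42.0 ± 8.51 CPM, and the ranges overlapped. The log2 fold change of -0.46 (SE 0.39) had an edgeR adjusted p of 0.608 and an exact permutation p of 0.0952. Ddit3 (chr10:127290774-127296288, plus strand) encodes CHOP, the factor that links prolonged stress to cell death. Its levels were 105, 134, 123, 47.4 and 199 CPM in Apoe-/- livers and 144, 107, 170 and 79.1 CPM in Mif-2-/- Apoe-/- livers, so the Apoe-/- group held both the lowest and the highest library. The log2 fold change was -0.04 with an SE of 0.39, which leaves differences of either sign within its error (edgeR adjusted p = 0.973). Of the 1713 exonic bases of Ddit3, 68 are shared with Mars on the other strand.

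Asns and Chac1 are ATF4 targets with low or uneven counts. Asns (chr6:7675169-7693254, minus strand), which makes asparagine, had 4 to 31 counts per library, and its levels were 2.20, 0.804, 2.35, 1.21 and 2.13 CPM in Apoe-/- livers and 0.813, 2.27, 1.01 and 7.09 CPM in Mif-2-/- Apoe-/- livers. Only Mif-2-/- Apoe-/- replicate 4 exceeded the Apoe-/- range, and the sign of the log2 fold change (-0.69, SE 1.04) turned to 0.37 without it. Chac1 (chr2:119351229-119354381, plus strand), an enzyme that degrades glutathione, was measured at 24.3, 14.9, 13.1, 13.1 and 1.55 CPM in Apoe-/- livers and at 2.85, 35.2, 0.504 and 2.74 CPM in Mif-2-/- Apoe-/- livers, where the value of 0.504 CPM rests on 2 counts. A single library of each group stood on the side of the other genotype, replicate 5 of Apoe-/- and replicate 2 of Mif-2-/- Apoe-/-. The log2 fold change was 0.41 (SE 1.04, edgeR adjusted p = 0.891). It became 2.81 without Mif-2-/- Apoe-/- replicate 2 and 3.09 without both of these libraries. Leaving out the libraries that oppose a difference widens it by construction, so the larger values are not evidence of one.

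The order of the levels was compared per kilobase of exon, with the union of all annotated exons of a gene as its length. This is not the length of the transcripts present, and reads need not cover a gene evenly. The order depends on this choice of length. In Apoe-/- livers Hsp90b1 led with 79.1 ± 25.5 CPM per kb, followed by Ddit3 (70.9 ± 31.8), Herpud1 (59.1 ± 22.2), Xbp1 (45.5 ± 15.0), Hspa5 (29.9 ± 7.22), Pdia4 (24.2 ± 2.20), Atf4 (12.9 ± 3.38), Chac1 (8.18 ± 4.94), Trib3 (4.27 ± 1.88) and Asns (0.635 ± 0.251). The intervals of mean ± SD of neighbours in this order overlapped except between Pdia4 and Atf4 and between Trib3 and Asns. In Mif-2-/- Apoe-/- livers Herpud1 led with 132 ± 57.1 CPM per kb, then Ddit3 (72.9 ± 23.4), Xbp1 (36.0 ± 18.7) and Hsp90b1 (34.3 ± 13.5). Trib3 stood next at 20.6 ± 10.8 CPM per kb, above Hspa5 (19.7 ± 2.53) and Atf4 (17.8 ± 3.61), and Pdia4 (11.5 ± 2.04), Chac1 (6.31 ± 10.2) and Asns (1.02 ± 1.07) were lowest. Only Atf4 and Pdia4 were neighbours whose intervals did not overlap in this group.

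Ratios of the read counts of 2 members within a library do not depend on how libraries are scaled. They are given as a description, without correction for gene length. The pairs were picked by hand, and the share of all 45 pairs that separate was not counted. Herpud1 had 0.297 to 1.71 counts per count of Hspa5 in Apoe-/- livers and 2.19 to 5.74 in Mif-2-/- Apoe-/- livers. The separation was wider against Pdia4, with 0.982 to 3.06 and 7.13 to 16.3. Levels of Herpud1 did not overlap between the genotypes, and those of Hspa5 and Pdia4 did not overlap in the other direction. The ratios of Herpud1 to these genes therefore separated by construction. Against Hsp90b1 the ratio was 0.249 to 0.551 in Apoe-/- livers and 1.01 to 4.18 in Mif-2-/- Apoe-/- livers, so that Herpud1 had fewer counts than Hsp90b1 in every Apoe-/- library and more in every Mif-2-/- Apoe-/- library. Trib3 per count of Ddit3 was 0.0498 to 0.132 in Apoe-/- livers and 0.160 to 0.413 in Mif-2-/- Apoe-/- livers, also without overlap. The ratios of Trib3 to Atf4 (0.186 to 0.475 and 0.326 to 1.53) and of Ddit3 to Atf4 (2.40 to 4.77 and 2.04 to 3.80) overlapped between the genotypes. So did those of Hsp90b1 to Hspa5 (1.19 to 4.5 and 0.945 to 3.09) and of Pdia4 to Hspa5 (0.303 to 0.685 and 0.226 to 0.423).

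**Figure D3:**
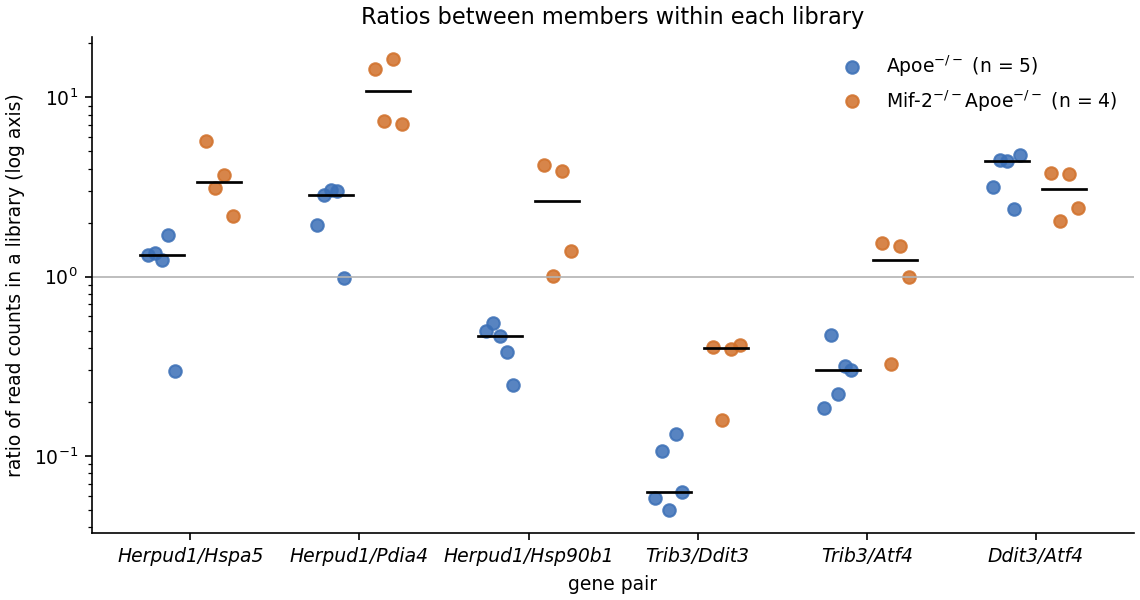
Ratio of the read counts of gene pairs within each library (log axis) in Apoe-/- (n = 5, blue) and Mif-2-/- Apoe-/- (n = 4, orange) livers, with the group median as a bar and equal counts as a gray line. The 3 Herpud1 ratios and Trib3/Ddit3 were higher in every Mif-2-/- Apoe-/- library, while the 2 ratios to Atf4 overlapped.

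Among the 45 pairs of members, the log2 levels of 9 pairs correlated across the 9 libraries at an unadjusted permutation p under 0.05 and 1 pair after adjustment. That pair was Hsp90b1 and Trib3, with Pearson's r = -0.94 (exact permutation p = 5.4e-04, adjusted 0.0242) and Spearman's rho = -0.85 (exact permutation p = 0.0061, adjusted 0.156). Without the 2 libraries farthest from the median of Hsp90b1 r was -0.91, and on deviations from the genotype means it was -0.79 (adjusted permutation p = 0.114). No pair passed adjustment within genotypes. Hsp90b1 and Pdia4 had r = 0.84 over all libraries and 0.35 within genotypes, and Atf4 and Ddit3 had 0.68 over all libraries and 0.79 within genotypes.

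The levels of the members were also compared with the composition of the libraries, and no relation passed adjustment. The share of counts in the 10 most highly expressed genes was 14.7% in Apoe-/- replicate 5 and 20.5% to 23.7% in the other Apoe-/- libraries, and it was 26.3% in Mif-2-/- Apoe-/- replicate 2 and 12.5% to 17.0% in the other Mif-2-/- Apoe-/- libraries. Chac1 correlated with this share at r = 0.90 (exact permutation p = 0.0023, adjusted over 30 relations 0.0557), rho = 0.75 (exact permutation p = 0.0255), and r = 0.88 without the 2 most distant libraries. Hsp90b1 had r = 0.78 and Trib3 r = -0.72 with it, with adjusted permutation p values of 0.102 and 0.144, and without the 2 most distant libraries r was 0.55 and -0.37. In a fit with the share as a covariate, the log2 fold change went from 1.21 to 0.92 for Hsp90b1, from -2.27 to -1.69 for Trib3 and from 0.41 to 0.39 for Chac1.

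**Figure D4:**
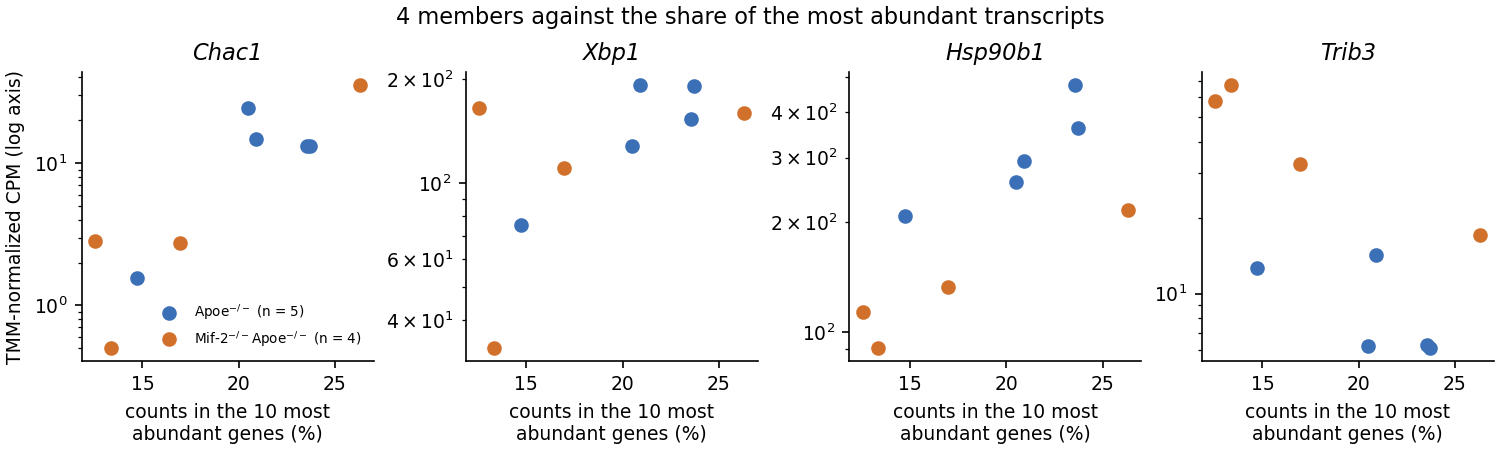
TMM-normalized CPM (log axes) of Chac1, Xbp1, Hsp90b1 and Trib3 against the percent of counts in the 10 most highly expressed genes, for Apoe-/- (blue, n = 5) and Mif-2-/- Apoe-/- (orange, n = 4) libraries. Chac1 was highest, at 35.2 CPM, in the library with the largest share (26.3%), which is Mif-2-/- Apoe-/- replicate 2.

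The genes whose profile over the 9 libraries was most like that of Hspa5, among the 8153 genes that averaged 10 CPM or more, were Pigl (r = 0.95), Fto (0.93), Chchd6 (0.93), Tmed10 (0.91) and Triap1 (0.90). For Asns they included Nagk (r = 0.90), Aplp1 (0.83), Senp2 (0.81) and Ptgis (0.80). The points share library, depth and normalization, and the values are descriptions.

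Beyond the members, 9 lists covered other genes of these pathways, and none of their genes was called by edgeR. The ER chaperones and folding enzymes had the highest median, with 28 of 35 tested genes higher in Apoe-/- livers and a median log2 fold change of 0.73 against -0.17 for all genes. In this list 10 genes had an unadjusted p under 0.05 on the side of Apoe-/- and 1 on the other (6.52% and 8.99% of all genes), and 6 did not overlap, all higher in Apoe-/- livers (2.24% of all genes). DESeq2 called 6, all higher in Apoe-/- livers (2.35% of the genes to which it gave an adjusted p). A fit without Apoe-/- replicate 5 and Mif-2-/- Apoe-/- replicate 2 was added after seeing the data. In it edgeR called 7 of 34 genes of this list and 1345 over all genes. Single removals of these libraries had raised the number of calls most, so more calls were built into this fit. Sdf2l1, a partner of the BiP co-chaperones, had 57.9 ± 60.4 and 5.50 ± 2.19 CPM (log2 fold change 3.39, SE 0.71, edgeR adjusted p = 0.100, DESeq2 1.9e-04). Its Apoe-/- mean was raised by replicate 4, at 164 CPM against 17.6 to 51.2 CPM in the other 4 libraries, all above the 2.52 to 7.73 CPM of Mif-2-/- Apoe-/- livers. Pdia6, a disulfide isomerase, had 516 ± 158 and 160 ± 76.1 CPM (1.69, SE 0.37, edgeR adjusted p = 0.105). Ganab (-1.22), the glucosidase II catalytic subunit, and Tor1a (-0.67) were at the other end.

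Manf and Atf5 are given in addition, chosen after their values were seen, because they had the lowest adjusted p of all pathway genes. Manf, a secreted ER stress protein that binds BiP, stood at 153, 199, 214, 157 and 136 CPM in Apoe-/- livers and 45.8, 70.4, 44.3 and 64.2 CPM in Mif-2-/- Apoe-/- livers. The groups were well apart, with a log2 fold change of 1.61 (SE 0.31) and an edgeR adjusted p of 0.0662. Atf5, a transcription factor of the integrated stress response, had 687 ± 80.7 and 267 ± 47.8 CPM (log2 fold change 1.36, SE 0.28, edgeR adjusted p = 0.0851), again without overlap.

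**Figure D5:**
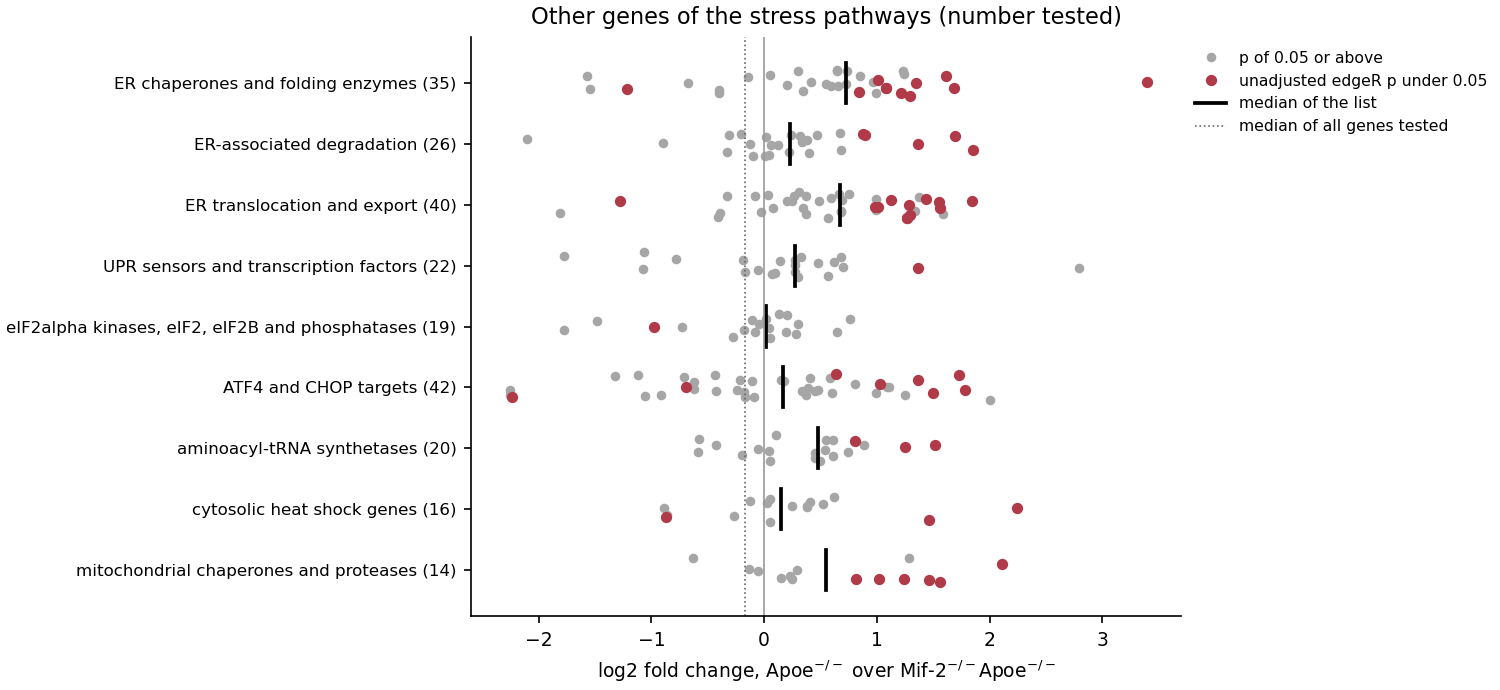
Log2 fold change, Apoe-/- over Mif-2-/- Apoe-/-, of each tested gene in the 9 pathway lists (points, red at an unadjusted edgeR p under 0.05), with the list median as a black bar and the median of all genes as a dotted line at -0.17. The medians run from 0.02 for the eIF2alpha list to 0.73 for the ER chaperones.

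The degradation and trafficking lists lay on the same side. In ER-associated degradation 19 of 26 genes were higher in Apoe-/- livers (median 0.23), 5 had an unadjusted edgeR p under 0.05 and 5 did not overlap, all higher in Apoe-/- livers (6.52% and 2.24% of all genes). Herpud1, which acts in the same pathway, had the opposite sign. Selenos (log2 fold change 1.85), a selenoprotein of the degradation channel, and Ube2g2 (1.69), a ubiquitin-conjugating enzyme, were highest, and Aup1 (-0.33) and Nploc4 (-0.31) lowest among genes of at least 10 CPM. In ER translocation and export 33 of 40 genes were higher in Apoe-/- livers (median 0.67), with 11 at an unadjusted p under 0.05 and 1 on the other side (6.52% and 8.99% of all genes). Sec61b (1.85), a subunit of the translocation channel, and Surf4 (1.56), a cargo receptor, were highest, whereas Golgb1 (-1.28), the Golgi tether giantin, and Sec31a (-0.41) were lowest.

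Few of the regulators passed even the unadjusted threshold. Among UPR sensors and transcription factors 15 of 22 were higher in Apoe-/- livers (median 0.27), and 1 gene had an unadjusted edgeR p under 0.05 (15.5% of all genes in either direction), Tmbim6 (1.36), an ER membrane inhibitor of cell death. Bak1 was at 0.70, Wfs1 at -1.07 and Nfyc at -0.78. The list of eIF2alpha kinases, eIF2, eIF2B and phosphatases split 10 to 9 with a median of 0.02, whose sign turned under RLE scaling (-0.04). Relative to the median of all genes in the same fit, the list stood at 0.19, and at 0.15 under RLE. On that scale its sign turned without Mif-2-/- Apoe-/- replicate 1 (-0.03). In it Gcn1, which activates the amino acid sensor GCN2, had an unadjusted p of 0.0189 (log2 fold change -0.98, edgeR adjusted p = 0.234), with Eif2ak4, GCN2 itself, at -0.28, Eif2b4 at 0.76 and Eif2s2 at 0.64.

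Targets of ATF4 and CHOP split 22 to 20 over the 42 of 44 listed genes that were tested, with a median of 0.16. This median became 0.06 with the covariate for the top 10 genes, 0.05 without Apoe-/- replicate 4 and 0.02 without its replicate 5. Relative to the median of all genes in the same fit, the list stood at 0.335. On that scale it fell to 0.075 with the covariate and 0.145 without Apoe-/- replicate 4, but was 0.362 without Apoe-/- replicate 5. An unadjusted edgeR p under 0.05 was found for 6 on the side of Apoe-/- and 2 on the other (6.52% and 8.99% of all genes). The hormones Gdf15 (466 ± 265 and 135 ± 74.8 CPM, log2 fold change 1.78, edgeR adjusted p = 0.160) and Fgf21 (52.3 ± 29.6 and 15.7 ± 5.85 CPM, 1.73, adjusted p = 0.168) had the highest values, on the opposite side from Trib3. Aldh18a1 (-1.11), of proline synthesis, and Slc38a2 (-0.92), an amino acid transporter, had the lowest. Of 20 aminoacyl-tRNA synthetases 15 were higher in Apoe-/- livers (median 0.48), with Hars (1.51) and Tars (1.25) highest and Iars (-0.58) and Farsa (-0.57) lowest, and 3 passed an unadjusted edgeR p under 0.05, all higher in Apoe-/- livers (6.52% of all genes). Hars was highest in Apoe-/- replicate 4, with 166 CPM against 27.9 to 41.4 CPM in the other Apoe-/- libraries and 9.09 to 29.0 CPM in Mif-2-/- Apoe-/- livers.

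Chaperones of other compartments were listed for comparison. Cytosolic heat shock genes had a median of 0.15 over 16 genes, with 2 at an unadjusted edgeR p under 0.05 on the side of Apoe-/- and 1 on the other (6.52% and 8.99% of all genes). Hspb1 (2.24) and Hsp90aa1 (1.47) were highest, and Bag3 (-0.88) and Hsf1 (-0.87), the heat shock transcription factor, lowest. Mitochondrial chaperones and proteases had a median of 0.55 over 14 genes, with 6 at an unadjusted p under 0.05, all higher in Apoe-/- livers (6.52% of all genes), among them Clpx (2.11) and Dnajc19 (1.56). Htra2 was at -0.63 and Afg3l2 at -0.14.

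Genes sharing the printed elements were counted as a description. Of the 20 tested genes outside the members with an ERSE in their window, 13 were higher in Apoe-/- livers, with a median log2 fold change of 0.36, and 4 (20.0%) had an unadjusted edgeR p under 0.05, all higher in Apoe-/- livers, beside 6.52% of all genes. Calr (1.34) and Pdia6 (1.69) were among these, while Syvn1 (0.06), which encodes HRD1, and Dnajc3 (0.21) were not, examples chosen after their values were seen. Pdia6 is also in the list of ER chaperones above, so the ERSE count is not independent of that list. Of the 6 tested genes outside the members with an ERSE-II, 5 were higher in Apoe-/- livers (median 0.83), the opposite sign to Herpud1. Of the 6, 2 (33.3%) had an unadjusted edgeR p under 0.05, higher in Apoe-/- livers, beside 6.52% of all genes. The 369 such genes with a CARE had a median of -0.21. At an unadjusted edgeR p under 0.05, 26 (7.05%) were higher in Apoe-/- livers and 32 (8.67%) in Mif-2-/- Apoe-/- livers. These shares were close to the 6.52% and 8.99% of all genes.

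Markers of other cell types were summed per library because secretory immune cells express many ER genes. Of 15 tested plasma and B cell markers 12 were higher in Mif-2-/- Apoe-/- livers (median -0.71), with summed levels of 138 to 228 CPM in Apoe-/- and 197 to 291 CPM in Mif-2-/- Apoe-/- livers. Only 1 of the 15 had an unadjusted edgeR p under 0.05, higher in Mif-2-/- Apoe-/- livers (8.99% of all genes). Only 1 did not overlap, in the same direction (2.03% of all genes). Mzb1, an ER protein of plasma cells, had 0.626 ± 0.493 and 14.2 ± 10.1 CPM without overlap (edgeR adjusted p = 0.106), and Jchain had at most 9 counts in any library, both named after their values were seen. Kupffer cell and macrophage markers had a median of 0.39 (1527 to 3560 and 1853 to 2556 CPM), with 4 of 15 at an unadjusted p under 0.05, higher in Apoe-/- livers (6.52% of all genes). The medians were -0.11 for endothelial, -0.24 for stellate, 0.09 for cholangiocyte, 0.29 for T, NK and neutrophil and 0.19 for hepatocyte markers. Hepatocyte markers had by far the highest sums, 76869 to 282855 CPM over both groups, and 11 of the 16 were tested because the other 5 were among the 10 excluded genes. The part of these cell types in the differences of the members was not tested.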

How the data were processed

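The authors made Smart-seq2 libraries from frozen liver sections of both genotypes. The submitters' processing notes name FastQC, cutadapt, HISAT2 and mm10, and the counting tool and all versions are not given in the sources used here. The authors deposited whole-number read counts per Entrez gene, without normalization. A line without an identifier was left out, and symbols were matched to 25275 identifiers through RefSeq names (GRCm38.p6), while 1904 had none. Gene coordinates and exon lengths are from GENCODE M21, on the same build.

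A gene was kept when 3 or more libraries of either genotype had 1 or more counts of it, and the 10 most abundant genes by mean CPM were left out. The study's methods state both filters for its liver lysates and, as a data exclusion, for bulk RNA-seq in general, not for the sections by name. The remaining 16860 were tested with edgeR 4.0.16 (TMM, quasi-likelihood, Benjamini-Hochberg) under R 4.3.3, without covariates. Standard errors were obtained as the log2 fold change over the square root of F. DESeq2 1.42.0 was an alternative. Exact permutation tests used log2(CPM + 0.5). Correlations between members were adjusted over 45 pairs, and those with library properties over 30 relations. A count of 3 or fewer was taken as a floor, between 0.402 and 1.70 CPM by library, and covers counting error only. Counts without molecular identifiers may hold PCR copies. The scripts were tested on simulated data. Within each genotype, no pair of libraries agreed within counting error (lowest chi-square per degree of freedom 25.1). This does not show that they came from separate animals, and pairs across genotypes were not compared. Figures used Python 3.11.15 and matplotlib 3.10.9.

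The members, lists and tests were chosen with earlier results of these data known. The named genes are the members, the 2 highest and 2 lowest genes of each list among those averaging 10 CPM or more, and the 5 genes most like Hspa5 and Asns, of which 1 is not reported here. The other genes named were chosen after their values were seen. Alternatives were other scalings (RLE, TMMwsp), other filters, the top 10 genes kept, mitochondrial, rRNA, Gm and Rik genes removed, counts thinned to 2318148 per library, a covariate for the fraction of counts in the top 10 genes, a replicate block, DESeq2 and each library left out. Leaving out Apoe-/- replicate 5 and Mif-2-/- Apoe-/- replicate 2 together was added after seeing the data. Their single removals had raised the number of calls most, so the higher counts of that fit were built in. The study gives 4 mice per group without saying how they map to the 5 Apoe-/- libraries, and none was removed.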

Additional observations from a re-analysis of the deposited data

Results flagged for a closer look

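Among 92 groups checked (46 genes in 2 genotypes), 10 held a library far from the others by Dixon's criterion on CPM. In each of the 10 that library was the highest of its group. The nominal rate of 1 in 20 groups assumes normally distributed values, which CPM need not follow. The genes other than the members were taken for extreme fold changes, so the 10 groups cannot be set against that rate. Only 1 of the 20 groups of members held such a library. Chac1 stood at 35.2 CPM in Mif-2-/- Apoe-/- replicate 2 against 0.504 to 2.85 CPM in the other libraries of that genotype. The same library was high in Sec61b (190 CPM against 37.8 to 52.1), Tmbim6 (1377 CPM against 417 to 539) and Dnajc19 (53.4 CPM against 14.9 to 18.1), and it also had the largest share of counts in the 10 most highly expressed genes (26.3%) and the lowest total (2318148). Apoe-/- replicate 4 was high in Sdf2l1 (164 CPM against 17.6 to 51.2), Hars (166 CPM against 27.9 to 41.4) and Clpx (137 CPM against 66.8 to 80.3). Single libraries of the Apoe-/- group stood out for Wfs1 (18.0 CPM in replicate 5 against 2.02 to 5.49), Bag3 (27.2 CPM in replicate 1 against 9.52 to 14.1) and Htra2 (34.5 CPM in replicate 2 against 1.61 to 9.33).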

How the results depend on the processing

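The number of genes called depended strongly on the fit, and so did the fold changes of some members. The log2 fold change of Chac1 ran from 0.0059 to 2.81 when each library was left out. Against 22 genes in the test reported, 724 were called by DESeq2, 560 with a replicate block, 35 with a covariate for the fraction of counts in the top 10 genes, 1345 without Apoe-/- replicate 5 and Mif-2-/- Apoe-/- replicate 2 together, and 9 to 262 when each library was left out. Against 0 members called, there were 3 by DESeq2 (Hsp90b1, Pdia4 and Trib3), 1 with the block (Hsp90b1, adjusted p = 0.0420), 2 without both libraries (Hsp90b1 at 0.0050 and Trib3 at 0.0147), and 0 to 2 when each library was left out, the 2 without Mif-2-/- Apoe-/- replicate 2 (Trib3 at 0.0433). Against 0 pathway genes called, there were 1 with TMMwsp, 2 with edgeR's own filter, 16 with the block, 1 with the covariate, 30 without both libraries, 20 by DESeq2, and 0 to 16 when each library was left out (5 without Apoe-/- replicate 5, 1 without Mif-2-/- Apoe-/- replicate 1 and 16 without its replicate 2).

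The median of the members (0.15) became 0.31 with TMMwsp and 0.39 with edgeR's filter, and ran from 0.019 to 0.32 when each library was left out, highest without Apoe-/- replicate 4. The median of all genes moved from -0.17 to 0.0015 with TMMwsp, and relative to it the ER chaperones stood at 0.90 with TMM and 0.91 with TMMwsp, but at 0.59 with the covariate, 0.62 without Mif-2-/- Apoe-/- replicate 3 and 1.22 without both libraries. ER translocation and export went from 0.84 to 0.44 with the covariate. The sign of Ddit3 turned with TMMwsp (0.12), with the top 10 genes kept (0.023), with mitochondrial, rRNA, Gm and Rik genes removed (0.021), with the covariate (0.14) and in 5 of the fits without a library (up to 0.22, from -0.30). That of Asns turned with thinned counts (0.19) and without Mif-2-/- Apoe-/- replicate 4 (0.37, with -1.005 the lowest value without any 1 library), and edgeR's filter left it without a value. The other 8 members kept their sign in all alternatives run. The correlated pairs went from 1 to 0 within genotypes. The cause of these changes was not tested.

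The replicate numbers did not pair the samples: the correlations of same-numbered libraries were 0.14, -0.02, 0.01 and -0.03. With the block, in which Apoe-/- replicate 5 has no partner and does not contribute, Chac1 had a log2 fold change of 2.23 and Herpud1 -0.85. Asns, with 4 to 31 counts, and the lowest Chac1 library, with 2 counts, were limited by depth.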
